A study of Mus musculus with 6 samples.

Results

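The enzymes described here make serine and carry its carbon through the folate cycle. They are Phgdh, Psat1 and Psph of serine synthesis, Shmt1 and Mthfd1 of the cytosolic folate pathway, and Shmt2, Mthfd2, Mthfd1l and Aldh1l2 of the mitochondrial folate pathway. These 9 genes were taken by symbol from 22180 genes on the array, and each was measured by 1 probe set that carries no other symbol. The RNA came from CD4 T cells of OT-II transgenic mice, aged 12 to 16 weeks when spleen and lymph nodes were taken, which carry a transgenic receptor for an ovalbumin peptide. Culture with this peptide and antigen-presenting cells lasted 72 hours, in medium with 10% dialyzed serum, and CD4 cells were purified again before lysis. The control group (3 arrays) had the complete medium, and the low arginine group (3 arrays) had medium with 1% of the normal arginine, or 12 uM. The sample titles call each array a biological replicate. The description of the study names 6 mice and does not say which mice gave which array, so how much of the spread between arrays is technical is not known. The comparison asks how these enzymes differ between stimulated T cells with a normal and with a low supply of arginine.

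Serine is made from phosphoglycerate, an intermediate of glycolysis, by Phgdh, Psat1 and Psph in turn. Shmt enzymes then split serine into glycine and a carbon unit on tetrahydrofolate, which is used to make purines and thymidylate and to remethylate homocysteine. In the mitochondria Shmt2, Mthfd2 and Mthfd1l pass the unit on to formate, which leaves for the cytosol, where Mthfd1 puts it back on folate, while Aldh1l2 burns formyl-tetrahydrofolate to carbon dioxide and yields NADPH. Stimulated T cells are known to rely on this route while they divide, and several of these genes are known targets of Atf4, the transcription factor of the amino acid response.

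Aldh1l2 was the member that passed the test, rising 2.66-fold in low arginine, and none fell. The other mitochondrial enzymes did not pass, although each had groups that did not overlap: Shmt2 and Mthfd2 lay higher in low arginine and Mthfd1l lay lower. The cytosolic Shmt1 and Mthfd1 had overlapping groups because control replicate 1 lay above the other controls. Without that array, singled out with its values known, both rose, as did Shmt2, in a fit where 11.0% of all genes rose. The change of Shmt1 turned to -0.045 without control replicate 3. The serine synthesis enzymes had changes between 0.04 and 0.25 on the log2 scale, and none of them passed with or without control replicate 1.

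By limma with Benjamini-Hochberg adjustment over 14787 genes tested (threshold 0.05 on the adjusted p), 1 of 9 members was higher and 0 lower. Of all genes tested 12.2% passed, 5.19% higher (767 genes) and 6.98% lower (1032 genes), and centring arrays at the 75th percentile gave 535 higher and 1190 lower. The unadjusted p was below 0.05 for 4 members, the mitochondrial ones, against 27.3% of all genes. The median change of the members was 0.25 on the log2 scale (low arginine minus control), against 0.00945 over all genes tested. Of the 9 changes 8 were positive, against 7624 of 14787 over all genes tested. In bulk samples fewer cells of a type and less RNA per cell cannot be told apart.

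**Figure D1:**
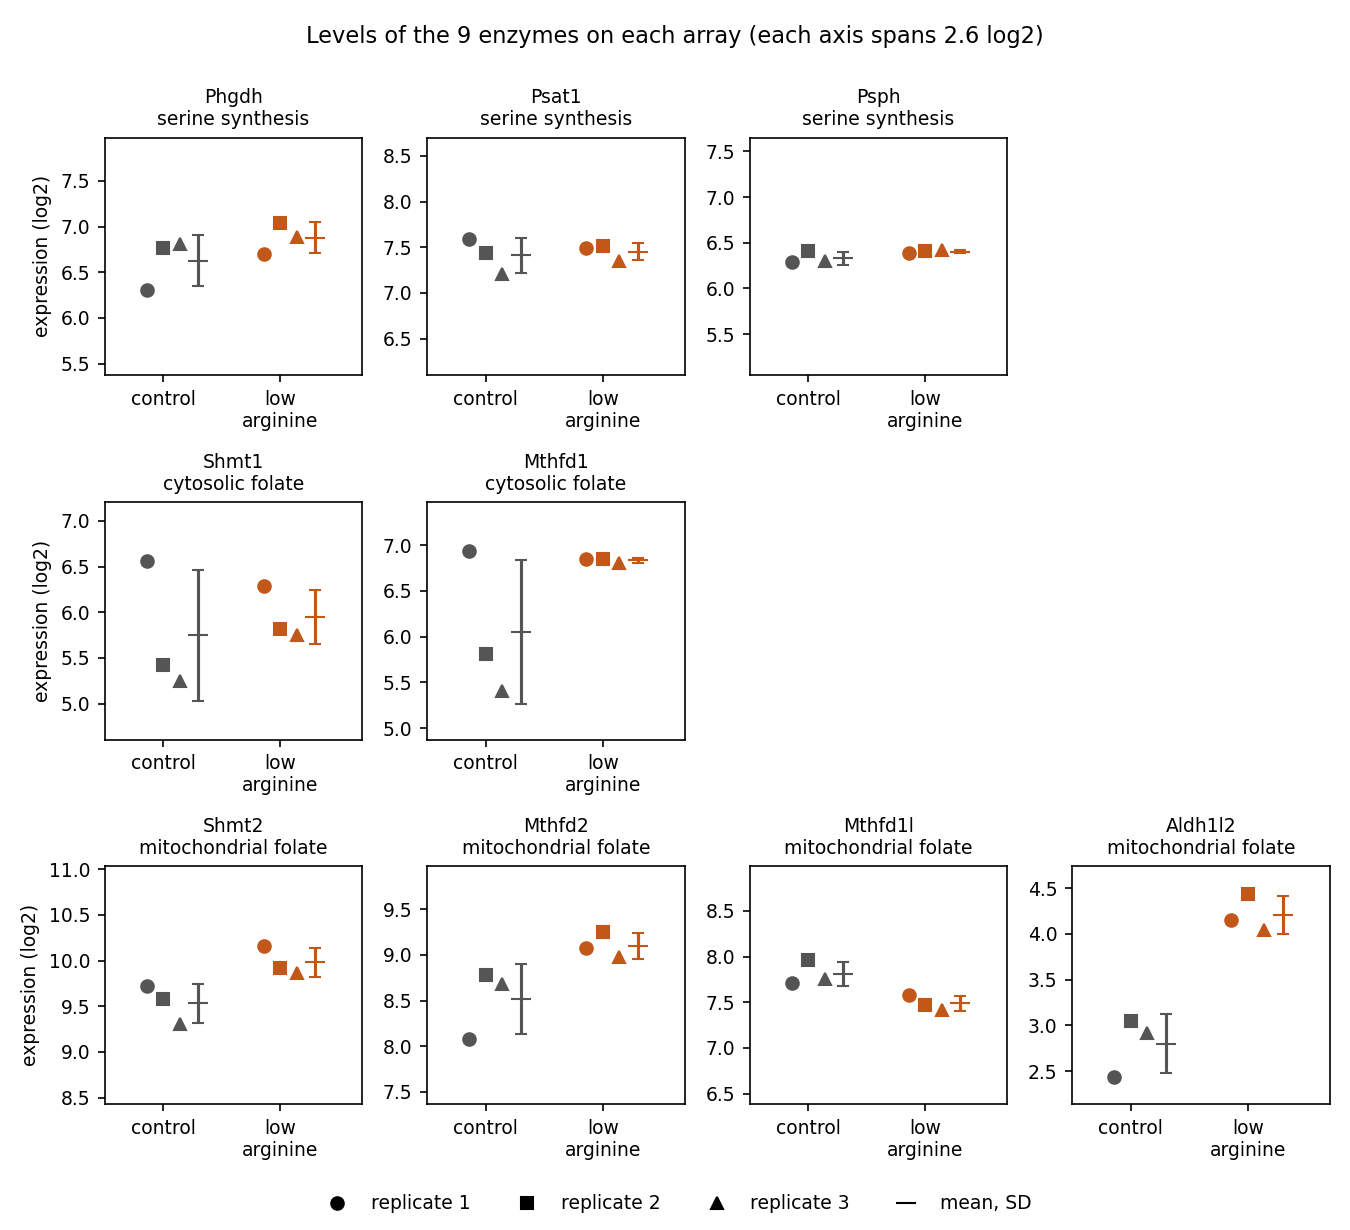
Expression (log2) of the 9 enzymes on each of the 6 arrays, in rows for serine synthesis, cytosolic folate and mitochondrial folate enzymes. Marker shapes stand for replicate numbers and the bars for the mean and SD of 3 arrays. Control replicate 1 lies above the other controls for Shmt1 and Mthfd1 and below them for Phgdh, Mthfd2 and Aldh1l2.

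The lowest log2 value of any probe set was 0.956 and the highest 12.41, with array medians from 2.97 to 3.03, and genes with a mean under 2.48 were left out as dim. All 9 members passed that filter. T cell markers were bright, with Cd3e at 10.8 ± 0.04 in control and 10.9 ± 0.08 in low arginine, and Cd4 at 10.3 ± 0.12 and 10.1 ± 0.18 (SD, n = 3). The changes of the 9 measured ran from -0.32 to 0.11, and none passed, where 12.2% of all genes did. No gene of the other marker lists passed with all arrays, while without control replicate 1 Eomes rose and Cd8a, Cd8b1 and Klrd1 fell (limma adjusted p = 0.00561, 0.00857, 0.00588 and 0.00679), named after their values were seen. Of 8 B cell markers measured 5 were dim, and their summed linear level was 44.4 to 48.1 in control and 43.8 to 46.1 in low arginine. Of 11 myeloid and dendritic markers 6 were dim (83.6 to 115 and 102 to 106), of 6 CD8 and NK markers 2 were dim (156 to 206 and 133 to 172), and of 4 erythroid and granulocyte markers 2 were dim (21.9 to 23.0 and 20.8 to 22.8). The brightest CD8 and NK marker was Cd8b1, at 6.90 ± 0.34 in control and 6.24 ± 0.21 in low arginine (SD, n = 3). With all arrays it changed by -0.66 (limma adjusted p = 0.0632). Its low arginine arrays lay below every control, as in 16.2% of all genes. No marker was listed at 0. The part of other cells in the results below was not tested. Control replicate 1 stood apart on the second principal component, which took 22.5% of the variance, with a score of 35.2 against -8.53 and -22.3 in the other controls. For the 9 members, results that rest on that array are given with and without it. For the other genes this is done only for some.

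Aldh1l2, which oxidises formyl-tetrahydrofolate in the mitochondria, stood at 2.44, 3.05 and 2.91 on the log2 scale in control replicates 1, 2 and 3. In low arginine replicates 1, 2 and 3 it stood at 4.15, 4.44 and 4.04. Every low arginine array lay above every control array. The change was 1.41 (95% interval 0.98 to 1.84, limma adjusted p = 0.00536), or 2.66-fold (1.97 to 3.59), and 2.18% of genes tested had a larger change in either direction. The control level lay near the limit of 2.48 used for dim genes, and how far the fold depends on that was not tested. It passed in all 15 alternatives of the processing, with changes from 1.22 to 1.54 and adjusted p from 2.17e-04 to 0.0322.

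Shmt2, which splits serine in the mitochondria, stood at 9.72, 9.58 and 9.30 in the controls and at 10.2, 9.92 and 9.86 in low arginine. The lowest low arginine array lay above the highest control. The change was 0.45 (95% interval 0.11 to 0.79, limma adjusted p = 0.092), or 1.36-fold, which did not pass. Without control replicate 1 Shmt2 rose by 0.54 (adjusted p = 0.0301).

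Mthfd2, the dehydrogenase and cyclohydrolase that follows Shmt2, stood at 8.08, 8.78 and 8.69 in the controls and at 9.07, 9.25 and 8.98 in low arginine. The groups did not overlap, and control replicate 1 was the lowest array. The change was 0.58 (95% interval 0.13 to 1.03, limma adjusted p = 0.0949), or 1.50-fold, which did not pass. It was smaller with control replicate 1 left out, 0.37, and did not pass either (adjusted p = 0.0696).

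Mthfd1l, the synthetase that releases formate from the mitochondria, went the other way. Its levels were 7.71, 7.96 and 7.75 in the controls and 7.58, 7.47 and 7.41 in low arginine, again without overlap. The change was -0.32 (95% interval -0.59 to -0.05, limma adjusted p = 0.118), 1.25-fold lower, which did not pass. Leaving out control replicate 1 gave a change of -0.37 (adjusted p = 0.0606). Shmt2, Mthfd2 and Mthfd1l act in sequence, and the intervals of the first pair lay above 0 while that of Mthfd1l lay below it. These intervals are not adjusted for the number of genes, and 27.3% of all genes had an unadjusted limma p below 0.05.

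Groups that did not overlap were found in 4 of 4 mitochondrial members, 3 higher and 1 lower, and in 0 of 5 of the other members. For Shmt1 and Mthfd1 the overlap came from control replicate 1 alone, as the other controls lay below every low arginine array. Over all genes tested the share was 32.2%, 16.0% higher and 16.2% lower. No member other than Aldh1l2 was past the threshold with all arrays, so the difference in count between the compartments was not tested.

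Shmt1, the cytosolic counterpart of Shmt2, stood at 6.57, 5.43 and 5.25 in the controls and at 6.29, 5.82 and 5.75 in low arginine. Control replicate 1 was the highest of all arrays and control replicates 2 and 3 were the lowest. The change was 0.20 (95% interval -0.57 to 0.98, limma adjusted p = 0.763), an interval that holds changes of nearly 2-fold up (1.98) as well as falls. Without control replicate 1 Shmt1 rose by 0.61 (95% interval 0.20 to 1.02, adjusted p = 0.0424), and without control replicate 3 its change turned to -0.045 (0.955).

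Mthfd1, which carries out in the cytosol the dehydrogenase, cyclohydrolase and synthetase steps in a single protein, stood at 6.94, 5.81 and 5.41 in the controls. In low arginine it stood at 6.85, 6.85 and 6.81, a range of 0.05 against 1.53 among the controls. Control replicate 1 lay above all low arginine arrays and the other controls lay below all of them. The change was 0.78 (95% interval -0.01 to 1.58, limma adjusted p = 0.19), or 1.72-fold, and did not pass. Without control replicate 1 Mthfd1 rose by 1.23 (95% interval 0.91 to 1.55, adjusted p = 0.00122), or 2.34-fold, close to the rise of Aldh1l2 in the same fit (1.23, 95% interval 0.90 to 1.56, adjusted p = 0.00145). In that fit 4 members rose (Shmt1, Mthfd1, Shmt2 and Aldh1l2) and 0 fell, where 22.5% of all genes passed, 11.0% higher and 11.5% lower. Array weights, which set control replicate 1 lowest, gave 4 members higher (Mthfd1, Shmt2, Mthfd2 and Aldh1l2) and 1 lower (Mthfd1l), where 37.3% of all genes passed, 18.8% higher and 18.5% lower. Control replicate 1 was singled out with its values known, so these fits do not replace the first.

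Phgdh, the first enzyme of serine synthesis, stood at 6.31, 6.77 and 6.81 in the controls and at 6.70, 7.04 and 6.89 in low arginine. The groups overlapped, control replicate 1 again lying lowest. The change was 0.25 (95% interval -0.14 to 0.63, limma adjusted p = 0.404), and 0.09 without control replicate 1 (0.685). Psat1, the transaminase that follows, stood at 7.59, 7.44 and 7.21 in the controls and at 7.49, 7.51 and 7.34 in low arginine, with the low arginine arrays inside the range of the controls. Its change was 0.04 (95% interval -0.27 to 0.34, limma adjusted p = 0.903) and its sign turned with arrays centred at the 75th percentile (-0.024) or without control replicate 3 (-0.066). Psph, the phosphatase that frees serine, stood at 6.29, 6.41 and 6.30 in the controls and at 6.38, 6.41 and 6.42 in low arginine. Its change was 0.07 (95% interval -0.16 to 0.30, limma adjusted p = 0.707), the narrowest interval of the 9, which leaves room for a fold of at most 1.23 up. For Psat1 the upper bound was 1.26-fold and for Phgdh 1.55-fold, so rises of the size seen in Aldh1l2 lie outside these intervals.

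**Figure D2:**
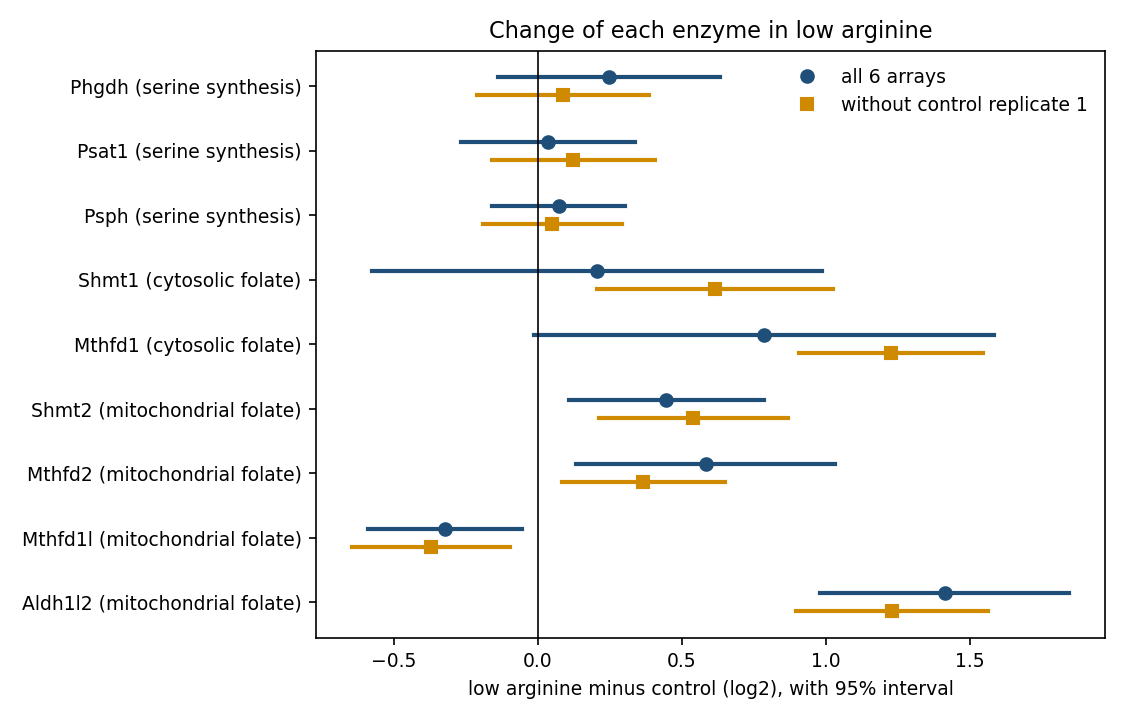
Change of each enzyme (low arginine minus control, log2) with its 95% interval from limma, over all 6 arrays (circles) and without control replicate 1 (squares). The intervals of Shmt1 and Mthfd1 span 0 with all arrays and lie above it without control replicate 1. Those of Aldh1l2, Shmt2 and Mthfd2 lie above 0 in both, and that of Mthfd1l lies below it in both.

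Control replicate 1 did not stand apart in 1 direction. It lay above the mean of the other controls by 1.23 for Shmt1 and 1.33 for Mthfd1 on the log2 scale, and below it by values of -0.65 for Mthfd2, -0.55 for Aldh1l2 and -0.48 for Phgdh. For Shmt2 and Psat1 it lay above by 0.28 and 0.26. The median of this difference over all genes tested was 0.0097. These values come from 1 array and have no test.

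Each mitochondrial enzyme was set against its cytosolic counterpart within an array, which asks whether the 2 genes of a pair changed by different amounts. For Aldh1l2 minus Aldh1l1, the cytosolic formyl-tetrahydrofolate dehydrogenase, the difference was -0.81, -0.19 and -0.23 in the controls and 0.99, 1.13 and 0.70 in low arginine. It was higher by 1.35 on average, with no overlap (exact permutation test, two-sided, p = 0.1, 0.2 adjusted over 4 pairs). Aldh1l1 alone changed by 0.06 (95% interval -0.18 to 0.31, limma adjusted p = 0.768). Its level in control was low, at 3.21 ± 0.06 (SD, n = 3), near the array medians (2.97 to 3.03) and the B cell marker Cd79b (3.14 in control). The limit used for dim genes lies below all of these, so whether Aldh1l1 was expressed is not known. If it was not, this pair only restates the change of Aldh1l2.

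For Mthfd1l minus Mthfd1 the difference was 0.77, 2.15 and 2.34 in the controls and 0.73, 0.63 and 0.61 in low arginine. It was lower by -1.10 on average and did not overlap, although control replicate 1 lay close to the highest low arginine array (exact permutation p = 0.1, adjusted p = 0.2). For Mthfd2 minus Mthfd1 the controls were at 1.14, 2.98 and 3.28 and the low arginine arrays at 2.22, 2.41 and 2.17, between the controls (change -0.20, exact permutation p = 0.9, adjusted p = 0.9). For Shmt2 minus Shmt1 they were at 3.16, 4.15 and 4.05 and at 3.87, 4.10 and 4.11 (change 0.24, exact permutation p = 0.7, adjusted p = 0.9). With 3 arrays against 3 this test cannot go below 0.1, so no pair could pass. Without control replicate 1 the changes were 1.15, -1.60, -0.86 and -0.075 in the order given here, so the sign of the Shmt pair rests on that array, and that of Mthfd2 minus Mthfd1 turned without control replicate 2 (0.055) or 3 (0.21).

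**Figure D3:**
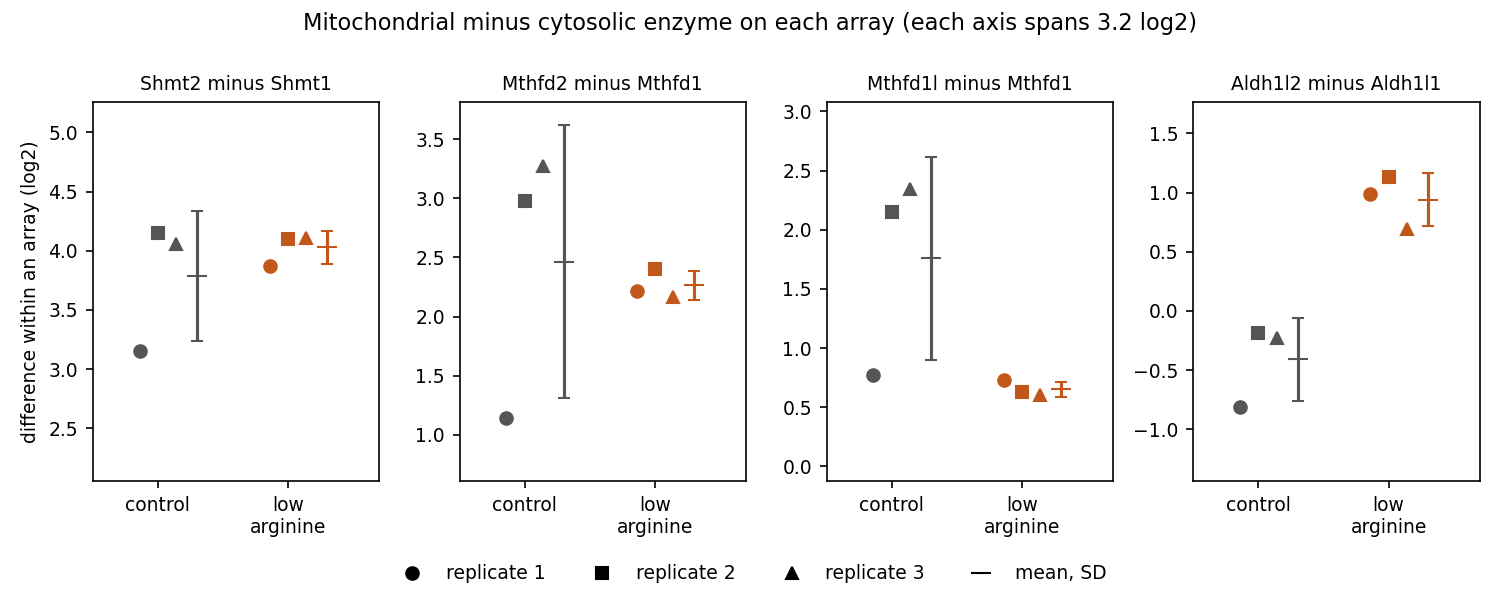
Log2 level of the mitochondrial enzyme minus that of its cytosolic counterpart on each array, for 4 pairs, with the mean and SD of 3 arrays. The groups separate for Aldh1l2 minus Aldh1l1 and narrowly for Mthfd1l minus Mthfd1, and control replicate 1 is the lowest array for Shmt2 minus Shmt1 and Mthfd2 minus Mthfd1.

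Many targets of Atf4 carry a short element near the gene's start, and its core, TGATGNAA, was looked for on both strands of the promoter windows of the members (300 bases, 250 before to 50 after the start, RefSeq, GRCm38.p6). Asns, the asparagine synthetase, is shown as a gene that holds it, and Mthfd2 as a member, with the matched core in capitals.
Asns promoter, chr6:7693160-7693459, minus strand: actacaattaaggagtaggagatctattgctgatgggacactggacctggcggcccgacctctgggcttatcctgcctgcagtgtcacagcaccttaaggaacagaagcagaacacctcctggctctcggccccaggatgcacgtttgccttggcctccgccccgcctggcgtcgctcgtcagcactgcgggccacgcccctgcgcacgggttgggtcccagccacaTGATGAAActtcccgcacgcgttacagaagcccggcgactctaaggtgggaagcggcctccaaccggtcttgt
Mthfd2 promoter, chr6:83317555-83317854, minus strand: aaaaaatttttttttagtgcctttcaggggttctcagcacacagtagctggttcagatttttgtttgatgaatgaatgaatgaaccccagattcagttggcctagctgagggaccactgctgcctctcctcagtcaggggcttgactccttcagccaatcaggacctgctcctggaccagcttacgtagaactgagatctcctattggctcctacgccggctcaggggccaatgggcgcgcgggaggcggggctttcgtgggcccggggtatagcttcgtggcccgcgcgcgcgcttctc
The match in Asns begins 23 bases before the gene's start. Windows were matched for 8 of the 9 members (9 windows, Psat1 having 2 and Aldh1l2 none), and 0 of them held this core, against 3.97% of 32851 windows of the same length. The E-box CACGTG, which reads alike on both strands and whose last bases can overlap the start of the first motif, was in 0 of the 9 windows and in 7.15% of all windows. The absence says only that these letters are not in these windows.

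The genes most like Aldh1l2 over the 6 arrays were Tmem42 (Pearson r = 0.997), Zkscan8 (0.995) and Nfkb2 (0.995), a subunit of NF-kappa B. They rose by 0.83, 0.96 and 0.97 (limma adjusted p = 0.0122, 0.00474 and 0.00776), and the call of Tmem42 ended without low arginine replicate 2 (0.0638). Each r is over 6 arrays that fall into separate groups, so it mostly restates the difference between groups.

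Of 14 other genes of the folate cycle tested, 3 rose and 0 fell, where 5.19% of all genes rose and 6.98% fell. Of the 14 changes 13 were positive (median 0.25), against 7624 of 14787 over all genes tested. Mtrr, the reductase that keeps methionine synthase active, stood at 5.79, 5.77 and 5.65 in the controls and at 6.68, 7.09 and 6.93 in low arginine, a clear separation. It rose by 1.17 (95% interval 0.86 to 1.47, limma adjusted p = 0.00334) and passed in all 15 alternatives. Mtr, the methionine synthase that it serves, rose by 0.38 (adjusted p = 0.0484). Fpgs, which adds the glutamate tail that keeps folate in the cell, rose by 0.85 (adjusted p = 0.0373). Removal of any array but control replicate 1 ended the calls of Fpgs and Mtr (adjusted p = 0.0877 to 0.139 and 0.103 to 0.155). They also ended after quantile normalization (0.051 and 0.0519), and that of Mtr with either centring of the arrays (0.074 and 0.109) and with the trended prior (0.0805).

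Among the folate genes that did not pass, Slc25a32, the mitochondrial folate carrier, changed by 0.47 (adjusted p = 0.257), and Mthfd2l, a paralogue of Mthfd2, by 0.29 (0.116). Tyms, the thymidylate synthase, changed by -0.23 (adjusted p = 0.729), a sign that turned without control replicate 1 (0.072) or low arginine replicate 3 (0.013) and with array weights (0.081). With control replicate 1 left out, 7 of the 14 rose, in a fit where 11.0% of all genes did. Slc25a32 was among them (0.73, adjusted p = 0.0153), as was Gart, an enzyme of purine synthesis that takes formyl groups from folate (1.14, 0.00145), chosen here after its values were seen. Gart resembled Mthfd1 in its levels, at 7.41, 6.46 and 6.09 in the controls and 7.40, 7.45 and 7.41 in low arginine, with control replicate 1 beside the low arginine arrays.

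**Figure D4:**
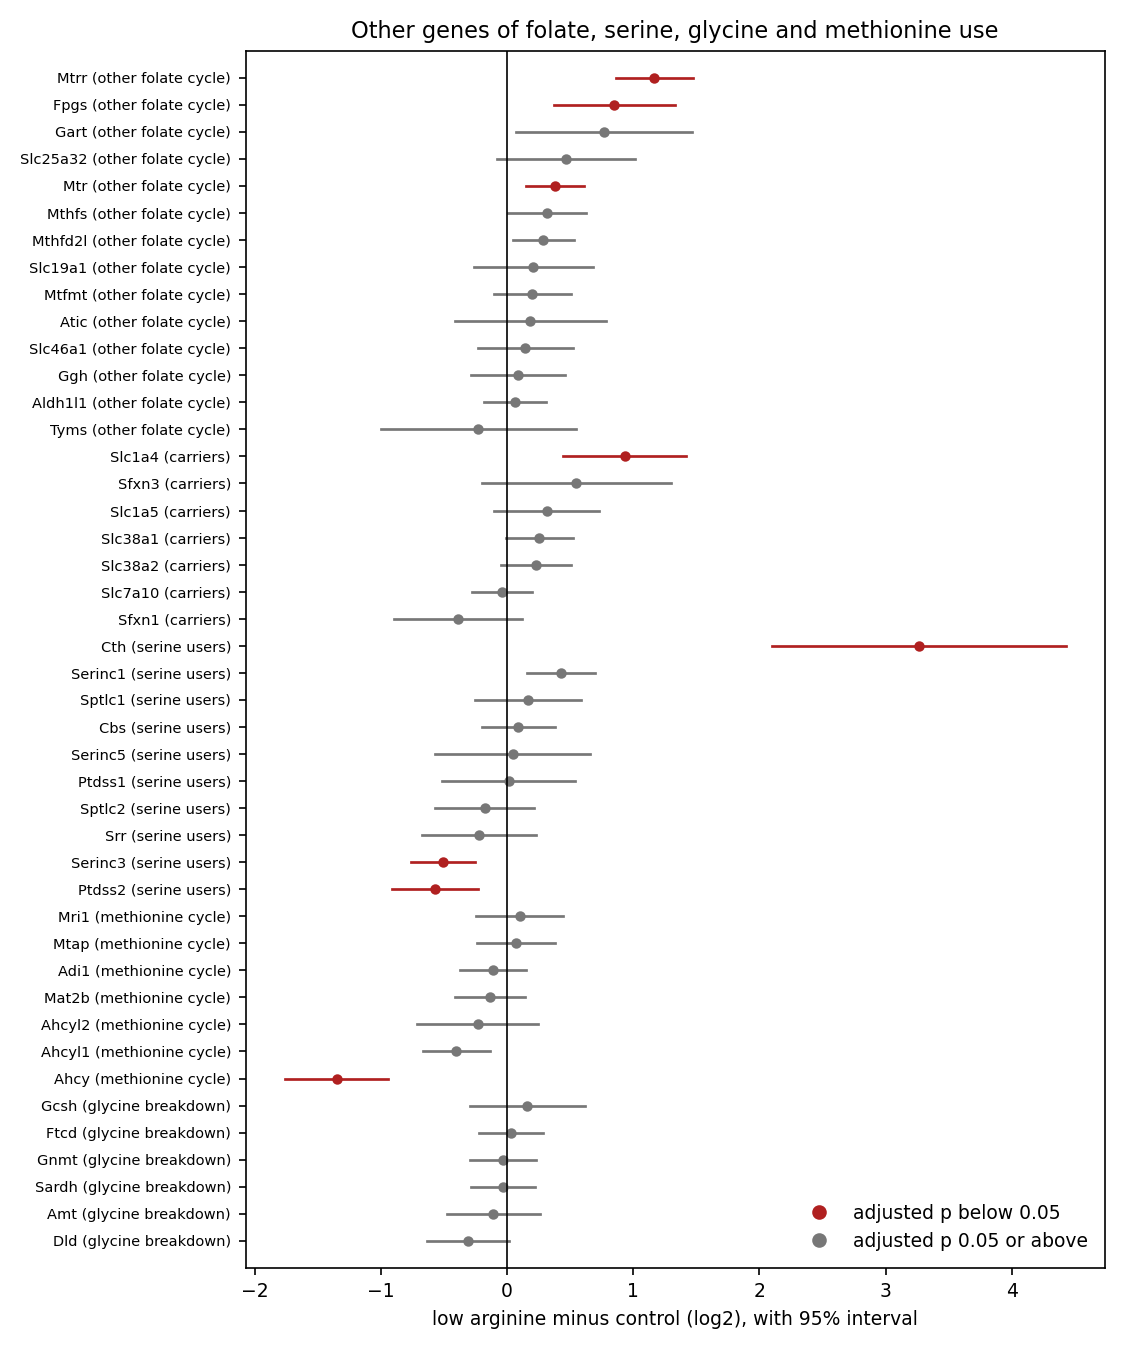
Change (low arginine minus control, log2) with its 95% interval from limma for 44 other genes of folate, serine, glycine and methionine use. Red marks an adjusted p below 0.05. Cth, Mtrr, Slc1a4, Fpgs and Mtr rose, and Ahcy, Ptdss2 and Serinc3 fell.

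Among 7 carriers of serine and glycine 1 rose, Slc1a4, a carrier of alanine, serine and cysteine, by 0.93 (adjusted p = 0.0289). Its call ended when control replicate 2 or 1 of the low arginine arrays was removed (0.0536 to 0.113). Among 10 genes of serine use 1 rose and 2 fell. Cth, the last enzyme of the route from serine and homocysteine to cysteine, stood at 3.61, 5.71 and 5.57 in the controls and 8.22, 8.32 and 8.14 in low arginine, and rose by 3.26 (limma adjusted p = 0.00877). Control replicate 1 differed by -2.04 from the mean of the other controls there, and without it Cth rose by 2.59 (adjusted p = 3.94e-05), or 6.00-fold in place of 9.60-fold. Ptdss2, which makes phosphatidylserine, fell by 0.57 (adjusted p = 0.0438), and Serinc3 fell by 0.51 (0.0261). Removal of any array but control replicate 1 ended both calls (0.104 to 0.157 and 0.0511 to 0.104), and that of Ptdss2 with the trended prior (0.0568).

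The methionine cycle, which receives the methyl group from folate, had 1 fall among 7 genes tested. Ahcy, which removes the by-product of methylation, stood at 8.82, 8.94 and 8.37 in the controls and at 7.56, 7.16 and 7.35 in low arginine. It fell by 1.35 on the log2 scale (95% interval -1.76 to -0.94, limma adjusted p = 0.00536), its second, dimmer probe set changed by -0.38, and the mean of both changed by -0.87. Of 6 genes of glycine cleavage and breakdown tested, limma passed 0 (0 also at an unadjusted p below 0.05), and Gldc, the glycine decarboxylase, was among the 2 dim ones, at 2.28 ± 0.27 in control and 2.32 ± 0.14 in low arginine (SD, n = 3). Over these 5 lists together, 5 of 44 genes rose, where 5.19% of all genes did, and 3 fell, where 6.98% did.

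Genes on either side of the pathway moved as follows. The lower part of glycolysis, of which phosphoglycerate is an intermediate, fell in 4 of 4 genes tested, where 6.98% of all genes fell. Among them Pgk1 fell by 1.87, Pgam1 by 1.74 and Pkm by 1.21 (limma adjusted p = 6.76e-04, 6.76e-04 and 0.00211). The dimmer probe set of Pgam1 changed by -0.72. Of 15 markers of the amino acid response 6 rose and 1 (Stc2) fell, beside the same 5.19% and 6.98% of all genes. Asns rose by 0.59 (adjusted p = 0.0128), and its call ended without low arginine replicate 2 (0.0661). Sesn2, an inhibitor of mTORC1, rose by 1.55 (0.00318), and Nupr1 and Slc7a11, the cystine carrier, by 1.50 (0.0288) and 1.33 (0.0137). The calls of these last ended without single arrays (Nupr1 without any low arginine array, 0.0687 to 0.112, Slc7a11 without control replicate 2 or low arginine replicate 2, 0.0656 and 0.0662). Stc2 fell by 0.67 (0.0309), a call that ended on removal of any array but control replicate 1 (0.056 to 0.103). The dimmer probe set of Slc7a11 changed by 0.058, and the mean of both by 0.69. The RNA of Atf4 itself changed by 0.14 (adjusted p = 0.583), and its protein was not measured here.

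Mitosis markers fell in 19 of 19 genes tested, again beside 6.98% of all genes, led by Cdc25c (2.79), Bub1 (2.63) and Cdc25b (2.60), as falls on the log2 scale, with a mean level of 7.86 to 7.91 in the controls and of 6.59, 5.31 and 5.06 in low arginine replicates 1, 2 and 3. Mki67 fell by 1.63 (limma adjusted p = 0.0228), a call that ended on removal of replicate 2 or replicate 3 of either group (0.0554 to 0.0967). Low arginine replicate 1 held the most mitosis RNA of its group, and it was also the highest of its group for Shmt1, Mthfd1, Shmt2 and Mthfd1l. For Mthfd1 the margin was slight, with replicates 1 and 2 both at 6.85. Phgdh, Psat1, Mthfd2 and Aldh1l2 were highest in low arginine replicate 2, and Psph in replicate 3. The part of cell division in the levels of the 9 enzymes was not tested.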

How the data were processed

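The authors deposited log2 expression values per probe set of 1-colour Affymetrix whole-transcript arrays, made with oligo per the submitters' processing notes. Its version, normalization, background correction and log base: not given in the sources used here. Base 2 was taken from the range of the values. After sorting, no rank differed by more than 0.199 between arrays. No detection calls were used here, and the number of arrays limits the precision.

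Of 41345 probe sets 23521 carried 1 gene symbol in the table of the platform's probes, 1814 several and 16010 none. The brightest probe set by mean stood for each of 22180 genes. The dimmest share of 0.333 (7393 genes) was left out, and 14787 genes were tested in R 4.3.3 by limma 3.58.1 (two-sided moderated tests of lmFit and eBayes on the group, with 3.69 prior and 4 residual degrees of freedom). The fit was tested on simulated data. Pairs of genes were compared by an exact permutation test over arrays. Promoter windows came from RefSeq. Figures were drawn with matplotlib 3.10.9.

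The members and lists were chosen with earlier results of these data known. Named genes were the 9 members, the 3 largest rises and falls past the threshold without overlap in each pathway list, 13 genes whatever their result, and the 3 genes most like each member past the threshold. The labels do not say that equal replicate numbers pair samples, so the main fit was unpaired. Same-numbered arrays of the 2 groups had deviations from their group means that correlated at 0.12, 0.06 and 0.14. Alternatives were quantile normalization, centring on the median or 75th percentile, no or a stricter dim filter (0.5), averaged probe sets per gene, a robust trended prior, a block for the replicate number, array weights, and removal of each array in turn.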

Additional observations from a re-analysis of the deposited data

How the results depend on the processing

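Aldh1l2 rose in every alternative tried. The count of members higher in low arginine was 1 in all of them except array weights (4, with 1 lower, Mthfd1l) and the fits that left out 1 array, where it was 1 to 4, the 4 without control replicate 1. The count of members lower was 0 in every fit that left out an array. Array weights gave 2777 genes higher and 2737 lower over the whole table. The weights ran from 0.239 for control replicate 1 to 5.19 for control replicate 2, so that fit leans on 1 control. Leaving out 1 array gave 161 to 1626 genes higher and 338 to 1699 lower. Members past the threshold in an alternative and not in the main fit were Shmt1 (0.61, adjusted p = 0.0424), Mthfd1 (1.23, 0.00122) and Shmt2 (0.54, 0.0301) without control replicate 1, and Mthfd1 (1.02, adjusted p = 0.00143), Shmt2 (0.41, 0.013), Mthfd2 (0.37, 0.0362) and Mthfd1l (-0.45, 0.00429) with array weights. Signs turned for Psat1 with 75th percentile centring (-0.024), and for Tyms with array weights (0.081). Leaving out 1 array moved Psat1 between -0.066 and 0.12, Shmt1 between -0.045 (without control replicate 3) and 0.61, and Tyms between -0.53 and 0.072.

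Leaving out 1 array moved Shmt2 minus Shmt1 between -0.075 and 0.42, Mthfd2 minus Mthfd1 between -0.86 and 0.21, Mthfd1l minus Mthfd1 between -1.60 and -0.81, and Aldh1l2 minus Aldh1l1 between 1.15 and 1.47. With the replicate number as a block 632 genes were higher and 936 lower, and members numbered 1 and 0. Every array deviated most like the array of its own number (r = 0.06 to 0.14), a hint from the data and not from the design. The block ended the calls of Mtr (adjusted p = 0.0928) and Ptdss2 (0.0659) and changed no other call among the genes named.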
